A study of Mus musculus with 12 samples.

Results

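Solute carriers are the largest family of membrane transporters in mammals, and their genes carry symbols that begin with Slc. Here they were all genes whose symbol in the array's probe annotation is Slc, a family number, the letter a and a member number, and whose probe is in the deposited normalized table. That gave 210 probes of 155 genes, out of 17003 probes and 10183 named genes in the table. Of the 155 genes, 122 had a probe that exceeded background on 3 or more of the 12 arrays and were tested. The other 33 were not tested, and 26 of them had no array above background on their brightest probe. For 76 genes the probe was above background on all 12 arrays.

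The cells were fibroblasts (connective tissue cells) grown from mouse embryos and immortalized, known as MEFs. One line carries Rictor (Rictor+/+) and the other lacks it (Rictor-/-), and each was left untreated or given 2500 U/ml of mouse interferon-alpha, written IFN-alpha below, for 24 hours. The 4 groups had 3 arrays each: untreated Rictor+/+ (arrays 1, 5 and 9), IFN-treated Rictor+/+ (2, 6 and 10), untreated Rictor-/- (3, 7 and 11) and IFN-treated Rictor-/- (4, 8 and 12). Total RNA was hybridized to Illumina mouse BeadChips, on which each probe reads 1 stretch of a transcript. The labels name no separate cultures behind the 3 arrays, so p-values measure only the spread between these arrays, which may be technical. They name 1 line per genotype, so line and genotype cannot be told apart. A treatment field that names small interfering RNAs against Rictor on every sample was set aside in favour of the genotype fields.

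Rictor belongs to mTOR complex 2, which phosphorylates Akt and SGK, kinases known to act on nutrient transporters. Solute carriers move amino acids, sugars, nucleosides, metals, ions, vitamins and metabolic intermediates across the cell surface and across the membranes of organelles. The Slc25 genes encode the carriers of the inner mitochondrial membrane, with a few exceptions. In fibroblasts, glucose enters mainly through the protein of Slc2a1 (GLUT1), and glutamine and other amino acids through proteins of the Slc1, Slc7 and Slc38 families. Several amino acid transporters are targets of ATF4, the transcription factor of the amino acid response. Levels below are log2 normalized intensities, differences are log2 differences ± SE from limma with n = 3 arrays per group, and a gene was called when its limma p, adjusted by Benjamini-Hochberg over all features of the comparison, was under 0.05. A level is compared only within a probe, because different probes bind with different strength. In these extracts, fewer cells that express a gene and less of its RNA per cell cannot be told apart.

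The background of the arrays fell in 2 ranges, 210.7 to 240.3 on arrays 1 to 6 and 107.6 to 127.9 on arrays 7 to 12, and each range held all 4 groups. Arrays 1 to 6 hold 4 Rictor+/+ and 2 Rictor-/- arrays and arrays 7 to 12 the reverse, so background and line coincide in part. Array 12, an IFN-treated Rictor-/- array, had the lowest total signal, 21292305 against 39160370 to 62338146 on the others, and the fewest solute carrier probes above background, 111 against 124 to 154. The Rictor probe lay near background in both lines and checks nothing about the knockout. Xist, the RNA of the inactive X chromosome, was above background on 0 of 3 arrays in each Rictor+/+ group and 3 of 3 in each Rictor-/- group by its brightest probe, and the Y-linked Eif2s3y on 3 of 3 and 0 of 3. The lines thus differ at sex-linked genes as well. All 11 fibroblast markers were above background on all arrays. Of 11 leukocyte and macrophage markers 3 were measured, Lyz1 and Lyz2 did not pass the filter, and 6 were not analysed here. Of 8 neural markers 3 were measured. Of 8 epithelial, 8 endothelial and 8 adipocyte markers, 1 each was measured.

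The first question was which solute carrier genes differ between the Rictor-/- and Rictor+/+ lines. In untreated cells 16 were higher and 18 lower in Rictor-/- cells, so that 34 of 122 (27.9%) were called, against 13.3% of all features and 22.2% of named genes. The named genes are the fitting background, because the members could only come from them. By direction the background was 6.49% higher and 6.85% lower among all features, and 10.6% and 11.6% among named genes. A gene expressed in 1 line enters the test only through that line, so the count was also taken over genes above background on all arrays. There 17 of 76 solute carrier genes (22.4%) were called, against 18% of named genes. The share called was thus near that of named genes in both sets. The groups did not overlap for 62 solute carrier genes, against 33.5% of all features and 45.8% of named genes.

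With IFN-alpha in both lines, on arrays that the untreated comparison does not use, 15 genes were higher and 24 lower in Rictor-/- cells. These 39 of 122 (32%) compare with 16.3% of all features and 26.6% of named genes, or 7.33% higher and 8.95% lower among all features and 11.4% and 15.1% among named genes. Over genes above background on all arrays, 19 of 76 (25%) were called, against 21.3% of named genes. Without array 12 the counts were 17 higher and 23 lower. The groups did not overlap for 59 genes, against 31.2% of all features and 42.3% of named genes. With each array's median as the scale in place of quantile normalization, the calls were 5 higher and 14 lower without IFN-alpha and 3 higher and 25 lower with it, so the balance of higher to lower calls depends on the scaling. Under that scaling the median difference of all features with IFN-alpha was -0.26, against 0.04 after quantile normalization.

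Both comparisons called 29 genes, 11 higher and 18 lower, each in the same direction. They are 85.3% of the calls in untreated cells and 74.4% of those with IFN-alpha, against 71.8% and 58.9% among all features. All 34 and 39 calls kept their direction within each range of background, whose arrays had all entered the call, and 30 and 36 of them were called with the range as a block. No gene was called in opposite directions, and 103 of 122 (84.4%) had the same sign, against 73.2% of all features. The shares of common calls and of same signs were not taken over named genes, so no excess over the fitting background is shown. Fitted differences of at least 4-fold were called for 10 genes in untreated cells (2 higher and 8 lower) and for 12 with IFN-alpha (3 and 9). These are 8.20% and 9.84%, against 5.94% and 7.15% of named genes and 3.33% and 3.96% of all features. Among them Slc14a1, Slc6a15, Slc1a3, Slc2a3 and Slc16a4 were below background throughout 1 line and passed the filter only through the other. The 4-fold share was not taken over genes above background on all arrays, so no excess is shown. The calls that held under 9 other processing settings and without each array in turn were 4 higher and 12 lower ones untreated, and 3 and 17 with IFN-alpha. Of these, 14 genes held in both comparisons. Without each array in turn, 19 of 34 and 24 of 39 calls were kept on all 12 occasions. The calls lost on at least 6 occasions were Slc35a1 (9), Slc25a24 (8), Slc6a6 (7) and Slc16a13 (7) untreated, and Slc25a44 (8) and Slc7a6 (6) with IFN-alpha. Of the 14 genes that held in both comparisons, the 3 higher ones were Slc14a1, Slc6a15 and Slc16a10. The 11 lower ones were Slc1a3, Slc2a3, Slc7a3, Slc16a4, Slc8a1, Slc40a1, Slc38a1, Slc52a3, Slc25a32, Slc17a9 and Slc7a2. The 78 genes called in neither comparison differed by -1.37 (Slc4a8) to 1.39 (Slc39a3) untreated and by -1.01 (Slc25a28) to 1.18 (Slc25a4) with IFN-alpha, and the 95% interval lay within 2-fold for 33 and 30 of them. At the threshold in untreated cells, Slc35a1 was the last gene called (limma adjusted p = 0.0442) and Slc39a3 the first not called (1.39 ± 0.43, adjusted p = 0.0501). With IFN-alpha they were Slc25a44 (adjusted p = 0.0444) and Slc25a5 (adjusted p = 0.0516).

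**Figure D1:**
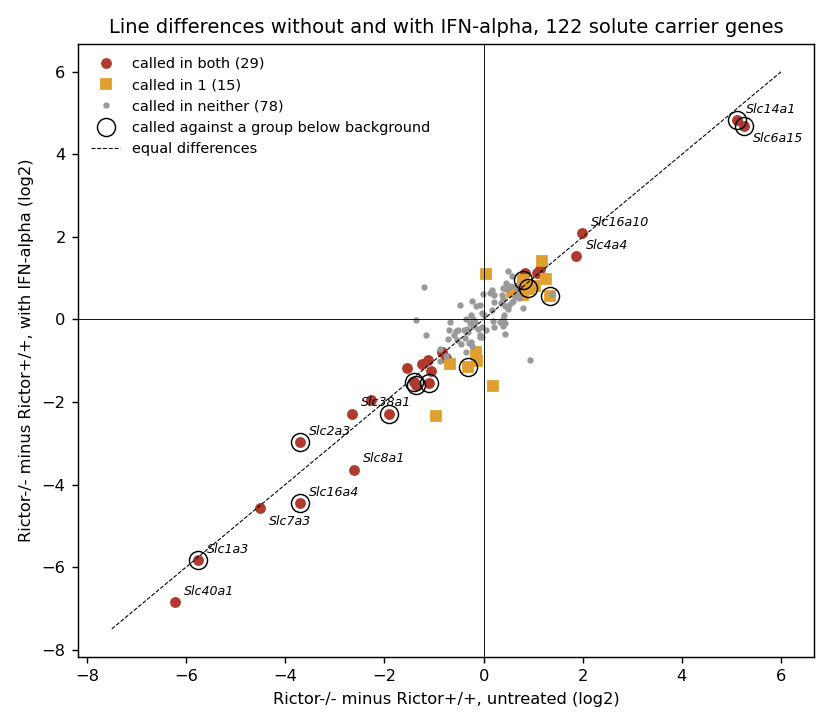
Difference between the lines for each of the 122 tested solute carrier genes, Rictor-/- minus Rictor+/+ in log2, without IFN-alpha on the horizontal axis and with it on the vertical axis; each point is a gene, and the dashed line marks equal differences. The 29 genes called in both comparisons lie in the lower left and upper right quadrants, with Slc7a3 at -4.52 and -4.58 and Slc16a10 at 1.98 and 2.10. Black rings mark genes called against a group with no array above background, whose position is a fitted value and not an exact size.

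Among 23 tested genes for amino acid and peptide transporters, 3 were higher and 5 lower in untreated Rictor-/- cells, and 3 and 5 with IFN-alpha (34.8% called in each). For this class and those below, the share called among named genes was 22.2% untreated and 26.6% with IFN-alpha. Over all features it was 13.3% and 16.3%. No class was tested against these shares. The median difference of the amino acid and peptide genes was -0.27 and -0.17. It was -0.04 in both comparisons over named genes, and 0.05 and 0.04 over all features. Slc1a3 encodes the glutamate transporter known as GLAST in brain. Its levels were 11.80, 10.89 and 10.99 in untreated Rictor+/+, 11.23, 10.90 and 11.59 in IFN-treated Rictor+/+, 5.13, 5.56 and 5.68 in untreated Rictor-/- and 5.92, 5.10 and 5.18 in IFN-treated Rictor-/- cells. All 6 Rictor-/- values were below background and all 6 Rictor+/+ values far above it. The gene was at least 35-fold lower without IFN-alpha (limma adjusted p = 6.63e-08) and at least 29.3-fold with it (adjusted p = 5.24e-08). These bounds, like those below, are computed against the background limit of the arrays under the processing used here, without sampling error. In the deposited values the differences of Slc1a3 were smaller, -3.78 and -3.77 in log2, against fitted ones of -5.77 and -5.83.

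Slc7a3, X-linked, encodes a transporter of the cationic amino acids arginine, lysine and ornithine. It measured 12.56, 11.90 and 11.75 in untreated Rictor+/+ and 7.96, 7.51 and 7.18 in untreated Rictor-/- cells, with 11.92, 11.96 and 12.77 against 7.78, 7.80 and 7.34 under IFN-alpha. The transcript remained above background in both lines and was 22.9-fold and 23.9-fold lower in Rictor-/- cells (-4.52 ± 0.31, limma adjusted p = 4.62e-07, and -4.58 ± 0.31, 3.63e-07). A second, dimmer probe of Slc7a3 near background differed by -0.31 and -0.72 and was not called. Slc7a2, a related transporter of cationic amino acids, was 2.16-fold lower untreated (-1.11 ± 0.24, limma adjusted p = 0.00723) and, with no IFN-treated Rictor-/- array above background, at least 1.63-fold lower with IFN-alpha (adjusted p = 0.000556).

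Slc38a1 encodes a sodium-coupled transporter of glutamine and other neutral amino acids. Its levels were 9.20, 9.66 and 9.52 in untreated Rictor+/+ and 6.10, 7.18 and 7.14 in untreated Rictor-/- cells, and 9.39, 9.51 and 9.39 against 7.44, 6.82 and 7.18 with IFN-alpha. The groups of the lines did not overlap, and the gene was 6.29-fold and 4.86-fold lower in Rictor-/- cells (limma adjusted p = 3.32e-05 and 0.000102). All 3 probes of Slc38a1 were lower. Slc43a1, which encodes a carrier of large neutral amino acids, was 2.17-fold and 1.96-fold lower (adjusted p = 0.00632 and 0.0123).

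Slc6a15 and Slc16a10 were higher in both comparisons. Slc6a15, whose product carries branched-chain amino acids and proline and is known mainly from neurons, measured 4.69, 5.23 and 4.65 in untreated and 5.37, 4.84 and 4.86 in IFN-treated Rictor+/+ cells. In Rictor-/- cells it measured 9.66, 10.16 and 10.50 untreated and 9.59, 9.55 and 9.98 with IFN-alpha. It was below background on every Rictor+/+ array, and was at least 15-fold and at least 12.2-fold higher in Rictor-/- cells (limma adjusted p = 4.66e-08 and 8.53e-08). Slc16a10, a carrier of aromatic amino acids within a family of carboxylate carriers, measured 5.78, 5.23 and 6.04 against 7.76, 7.35 and 7.86 untreated, and 5.66, 5.21 and 6.04 against 7.65, 7.62 and 7.92 with IFN-alpha. It was 3.94-fold and 4.27-fold higher, and was above background on 1 of 3 arrays of each Rictor+/+ group.

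Several transporters that serve general amino acid uptake in growing cells were not called. Slc38a2, a glutamine and alanine transporter induced by amino acid shortage, had levels of 12.61, 12.60 and 12.56 against 12.14, 12.11 and 11.91 in untreated cells. The groups did not overlap, but the difference of -0.54 ± 0.21 missed the threshold (limma adjusted p = 0.114; 95% interval -0.99 to -0.09). Slc3a2, the heavy chain that large neutral and cystine transporters need, differed by -1.16 ± 0.51 (adjusted p = 0.167; interval -2.26 to -0.06), with 11.02, 9.55 and 10.05 against 8.86, 9.23 and 9.07. Slc1a5 and Slc1a4, which exchange neutral amino acids, differed by -0.27 ± 0.46 (-1.27 to 0.73) and 0.20 ± 0.35 (-0.57 to 0.97) with overlapping groups. Slc6a6, the taurine transporter, was 1.9-fold higher in untreated Rictor-/- cells by its bright probe (adjusted p = 0.0427), but a dim probe of the same gene was lower (-1.54 ± 0.35), so its direction is uncertain. Slc7a6, a light chain for cationic and neutral amino acids, was called only with IFN-alpha, 0.66 ± 0.20 higher, after 0.58 ± 0.20 untreated (adjusted p = 0.0347 and 0.0707).

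**Figure D2:**
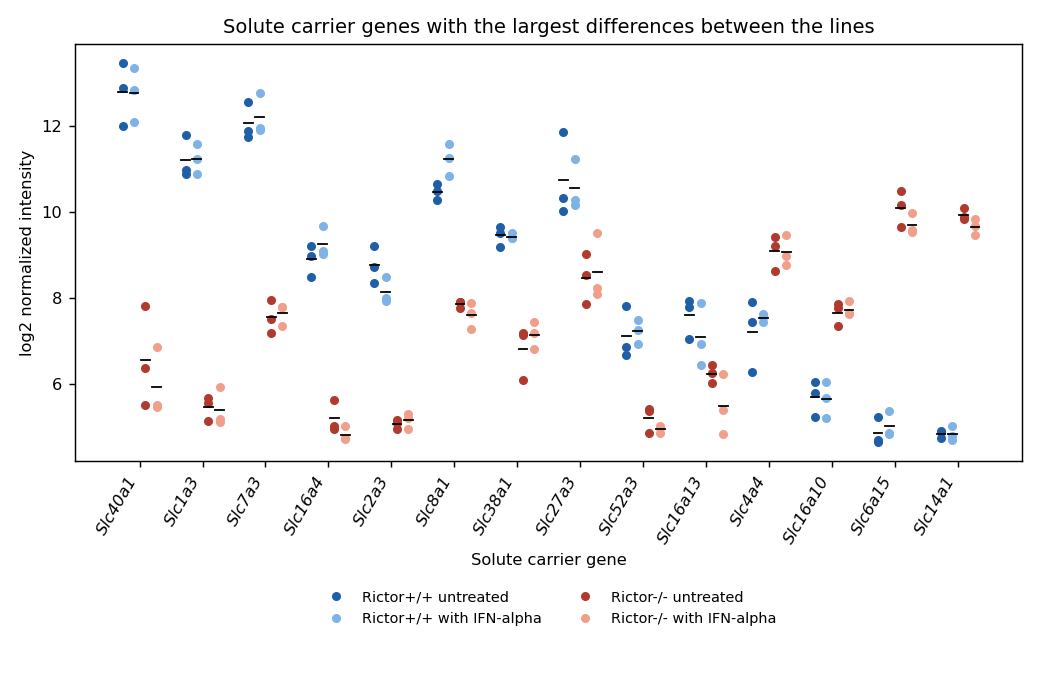
Log2 normalized intensity of the 14 solute carrier genes with the largest fitted mean difference among those called in both comparisons; each point is an array, bars are group means, and 4 colours mark the groups of 3 arrays. In the 6 Rictor-/- arrays Slc1a3, Slc2a3, Slc16a4 and Slc52a3 lie at the background, and so do Slc6a15 and Slc14a1 in the 6 Rictor+/+ arrays.

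Genes of the amino acid response outside the solute carriers were listed as well. Of 31 genes on the list 28 were measured, and 12 were lower and 1 higher in Rictor-/- cells in each comparison, with a median of -0.70 untreated and -0.66 with IFN-alpha. Among named genes 11.6% and 15.1% were called lower, and the median was -0.04 in both comparisons. In untreated cells the lower genes of the list included Aldh1l2 (-3.06 ± 0.25), Trib3 (-1.80 ± 0.34), Asns, asparagine synthetase (-0.95 ± 0.24), and Atf4 itself (-0.71 ± 0.18), while Stc2 was higher (1.52 ± 0.35). Slc7a11, the cystine and glutamate exchanger and a known ATF4 target, measured 8.29, 8.31 and 8.46 against 8.17, 7.26 and 6.98 in untreated cells and 8.63, 8.92 and 8.74 against 8.36, 7.77 and 7.99 with IFN-alpha. Every Rictor-/- value was lower than every Rictor+/+ value of the same treatment, but the differences of -0.88 ± 0.28 and -0.73 ± 0.28 were not called (limma adjusted p = 0.0579 and 0.108). With every kept probe tested, a dimmer probe of Slc7a11 was called lower in untreated cells (-1.23 ± 0.28, limma adjusted p = 0.00877). With IFN-alpha that probe was not called (-0.75 ± 0.28, adjusted p = 0.0825).

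TGATGNAA, the core letters of the amino acid response element, was searched on both strands in RefSeq promoter windows on GRCm38.p6. The search covered the 250 bases upstream of each listed start, and a gene can have several such windows. Windows were found for 120 of the 155 solute carrier genes. The letters occurred in any window of 4 of these genes (3.33%), against 3.91% of 27025 genes, so the share was not higher among solute carriers. The number of windows per gene was not taken into account. The 4 genes were Slc7a11, Slc50a1, Slc26a10 and Slc9a9, of which the last 2 were not tested. The windows of the tested pair are shown because Slc7a11 holds the letters in 2 places and Slc50a1 was called lower. Capitals mark the matches, which start 66 and 47 bases upstream of the start in Slc7a11 (chr3:50443614-50443863, minus strand) and 189 bases upstream in Slc50a1 (chr3:89270571-89270820, minus strand).
Slc7a11: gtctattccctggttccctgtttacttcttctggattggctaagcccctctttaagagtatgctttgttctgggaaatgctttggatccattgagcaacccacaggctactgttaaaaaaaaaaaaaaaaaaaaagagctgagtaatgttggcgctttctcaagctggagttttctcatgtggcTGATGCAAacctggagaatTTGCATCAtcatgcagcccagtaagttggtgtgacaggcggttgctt
Slc50a1: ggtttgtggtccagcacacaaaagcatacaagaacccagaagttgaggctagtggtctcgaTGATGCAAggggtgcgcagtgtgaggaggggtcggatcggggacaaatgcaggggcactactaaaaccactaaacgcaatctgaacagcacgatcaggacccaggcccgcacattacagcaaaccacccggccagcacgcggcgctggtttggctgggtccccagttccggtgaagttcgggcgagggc
A match is a description of the letters and says nothing about binding in these cells.

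Of 10 tested genes for glucose and other sugars, 2 were lower and 0 higher in untreated Rictor-/- cells, and 3 were lower with IFN-alpha. Slc2a3 encodes GLUT3, the high-affinity glucose transporter of neurons. It measured 9.22, 8.34 and 8.72 in untreated and 7.99, 7.92 and 8.48 in IFN-treated Rictor+/+ cells, and 4.94, 5.15 and 5.09, then 5.29, 5.21 and 4.94, in the Rictor-/- groups. It was below background on all 6 Rictor-/- arrays, at least 6.35-fold and at least 3.4-fold lower (limma adjusted p = 4.09e-07 and 2.49e-06). For Slc2a1, which encodes GLUT1, the levels were 12.28, 12.15 and 11.76 against 12.45, 12.41 and 12.47 in untreated cells, a difference of 0.38 ± 0.26 that was not called (adjusted p = 0.409; 95% interval -0.19 to 0.94). With IFN-alpha it was 0.60 ± 0.26 (adjusted p = 0.151; interval 0.03 to 1.16).

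Slc50a1, a sugar transporter of the SWEET family, measured 11.26, 10.33 and 10.60 against 9.81, 9.38 and 9.27 untreated and was 2.37-fold lower (limma adjusted p = 0.0157), and 2.1-fold lower with IFN-alpha (adjusted p = 0.0294). Slc2a10, which encodes GLUT10, was called under IFN-alpha and not without it. It measured 7.43, 7.25 and 7.05 in IFN-treated Rictor+/+ and 5.77, 6.02 and 5.13 in IFN-treated Rictor-/- cells (-1.61 ± 0.37, adjusted p = 0.00873), but 6.78, 6.73 and 7.45 against 8.02, 6.51 and 6.97 in untreated cells (0.18 ± 0.37, adjusted p = 0.81). The difference between these contrasts was not called. Of 4 tested carboxylate carriers 2 were lower in both comparisons. Slc16a4, of the monocarboxylate carrier family, measured 9.21, 8.50 and 8.99 in untreated Rictor+/+ and was below background at 4.95, 5.01 and 5.62 in untreated Rictor-/- cells, at least 6.99-fold lower (adjusted p = 8.18e-07), and at least 7.46-fold with IFN-alpha, where it measured 9.68, 9.10 and 9.03 against 4.73, 5.01 and 4.71. Slc16a13, of the same family, was 2.57-fold and at least 1.64-fold lower (adjusted p = 0.0437 and 0.0172), and without array 12 the second call was lost (adjusted p = 0.0601).

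Inorganic ion transporters gave 2 higher and 1 lower call among 14 tested genes in each comparison (21.4% called). Slc8a1, the sodium-calcium exchanger of the cell surface, measured 10.49, 10.29 and 10.66 in untreated Rictor+/+ and 7.91, 7.91 and 7.76 in untreated Rictor-/- cells. With IFN-alpha the values were 11.59, 10.85 and 11.26 against 7.27, 7.88 and 7.64. The groups stood well apart, and the gene was 6.15-fold and 12.5-fold lower in Rictor-/- cells (limma adjusted p = 5.94e-06 and 2.47e-07), with a second probe lower as well. Slc4a4, a sodium-bicarbonate cotransporter, was 3.67-fold higher untreated, with 6.28, 7.45 and 7.91 against 8.62, 9.22 and 9.42, and 2.91-fold higher with IFN-alpha (adjusted p = 0.00408 and 0.0116). Slc4a11, of the bicarbonate transporter family, was at least 1.15-fold and at least 1.09-fold higher, close to background (adjusted p = 0.0118 and 0.0245), and without array 12 the second call was lost (adjusted p = 0.0797). Slc12a2, the sodium-potassium-chloride cotransporter that serves cell volume control, differed by 0.39 ± 0.20 and 0.50 ± 0.20 and was not called (adjusted p = 0.228 and 0.109), and neither was Slc20a1, a phosphate transporter (0.71 ± 0.28 and 0.51 ± 0.28, 0.122 and 0.26). Of 19 listed genes for P-type cation pumps and their subunits 8 were measured. In untreated cells Fxyd5, a regulator of the sodium pump, was higher (4.20 ± 0.25) and Atp1b1, a sodium pump subunit, lower (-2.16 ± 0.23).

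Among 15 tested metal transporter genes 2 were higher and 2 lower in each comparison. Slc40a1 encodes ferroportin, the exporter through which cells release iron. It measured 13.48, 12.01 and 12.90 in untreated and 12.86, 12.10 and 13.37 in IFN-treated Rictor+/+ cells, against 7.82, 6.36 and 5.51 in untreated and 5.45, 6.85 and 5.50 in IFN-treated Rictor-/- cells. All Rictor+/+ arrays were far above all Rictor-/- arrays. The fitted folds were 75 and 115 (limma adjusted p = 9.16e-06 and 3.17e-06) and depend in part on the background, since 2 of 3 untreated and 1 of 3 IFN-treated Rictor-/- arrays were above it. Among the zinc transporters, Slc39a7 of the endoplasmic reticulum was 1.7-fold and 1.9-fold lower, with 12.92, 12.81 and 12.60 against 12.10, 12.06 and 11.89 untreated (adjusted p = 0.0145 and 0.0036). Slc39a13 was 2.21-fold and 2.32-fold higher by its bright probe and higher by a second probe (adjusted p = 0.0307 and 0.0192). Slc39a6 was 2.04-fold higher untreated (adjusted p = 0.0341) and was not called with IFN-alpha (0.81 ± 0.29, adjusted p = 0.081) except without array 12 (1.02, adjusted p = 0.0407).

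Slc39a14, which carries zinc and non-transferrin iron and is known to be induced in inflammation, was 2.16-fold higher in Rictor-/- cells with IFN-alpha (5.69, 5.71 and 6.13 against 6.64, 6.74 and 7.49, limma adjusted p = 0.0174). Without IFN-alpha it differed by 0.04 ± 0.28, and without array 12 the difference was 0.84 and not called (adjusted p = 0.059). Slc11a1 encodes a metal transporter of phagosomes that is known from macrophages, yet its probe read 10.49 to 11.62 on the 12 arrays with no difference called between the lines (-0.25 ± 0.30, 95% interval -0.89 to 0.40). In the leukocyte and macrophage marker list 3 of 11 genes were measured, and Cd14 alone was called, higher in Rictor-/- cells (1.98 ± 0.23). Csf1r and Cd3e differed by -0.59 ± 0.30 and -0.65 ± 0.34 and were not called (limma adjusted p = 0.238 and 0.248), so the list's median was -0.59 untreated and -0.38 with IFN-alpha while its sum was higher. The summed linear level of the 3 genes was 344 to 487 on untreated and 297 to 353 on IFN-treated Rictor+/+ arrays, and 875 to 1098 and 1110 to 1290 on the Rictor-/- arrays. Slc30a5 and Slc39a1, a Golgi and a surface zinc transporter, were not called.

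Of 12 tested genes for lipids, vitamins and cofactors, 1 was higher and 2 lower untreated, and 3 were lower with IFN-alpha. Slc52a3, a riboflavin transporter, measured 7.82, 6.85 and 6.67 in untreated Rictor+/+ cells and was below background on all 6 Rictor-/- arrays, at least 2.03-fold lower untreated and at least 1.82-fold with IFN-alpha (limma adjusted p = 0.000666 and 0.000118). Of 4 tested Slc27 genes, which encode fatty acid transport proteins, 3 were called in at least 1 comparison and did not share a direction. The fourth, Slc27a6, was not called (-0.71 ± 0.34 and -0.46 ± 0.34, limma adjusted p = 0.211 and 0.418). Slc27a3 measured 11.87, 10.33 and 10.03 against 9.03, 8.53 and 7.87 untreated and was 4.83-fold and 3.9-fold lower (adjusted p = 0.0103 and 0.0197). Slc27a4 measured 6.66, 6.57 and 7.02 against 8.07, 7.98 and 7.99 untreated and was 2.4-fold higher (adjusted p = 0.0238). With IFN-alpha Slc27a4 was not called on all arrays (0.98 ± 0.33, adjusted p = 0.0656) and was called without array 12 (1.44, adjusted p = 0.00128). Slc27a1 was called with IFN-alpha, at 9.10, 8.66 and 6.98 against 5.98, 6.37 and 5.33 (-2.35 ± 0.57, adjusted p = 0.0125), and not without it (-0.95 ± 0.57, groups overlapping). Slc19a1, the reduced folate carrier, was not called (0.17 ± 0.25 and 0.70 ± 0.25).

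Mitochondrial carriers were the largest class, with 28 of 31 genes tested. In untreated Rictor-/- cells 4 were higher and 2 lower (21.4% called), and with IFN-alpha 4 were higher and 4 lower (28.6%). The median size of their differences was 0.37 and 0.56 on the log2 scale, against 0.54 and 0.61 over all tested solute carriers, 0.49 and 0.50 over named genes and 0.35 and 0.37 over all features. Slc25a32, the carrier of folate into mitochondria, measured 9.53, 9.12 and 9.40 against 7.29, 7.97 and 8.19 untreated and was 2.9-fold and 2.26-fold lower (limma adjusted p = 0.00146 and 0.00741). Slc25a17, whose product resides in peroxisomes, measured 12.39, 12.23 and 12.24 against 11.47, 11.43 and 11.44 and was 1.79-fold and 1.72-fold lower (adjusted p = 0.0109 and 0.0144). Slc25a15, the ornithine carrier of the urea cycle, measured 8.29, 8.17 and 8.27 against 8.86, 9.09 and 9.22 and was 1.76-fold and 1.83-fold higher (adjusted p = 0.0132 and 0.0073). In each of these genes the arrays of the lines did not overlap.

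Slc25a37, mitoferrin, which brings iron into mitochondria, was 1.95-fold and 1.75-fold higher by its bright probe (limma adjusted p = 0.00438 and 0.0116), while a dimmer probe differed by -0.37 and -0.50 without a call. The calcium-regulated carriers of ATP-magnesium and phosphate, Slc25a24 and Slc25a23, were higher in untreated Rictor-/- cells, 1.73-fold and at least 1.37-fold (adjusted p = 0.0428 and 0.0337). With IFN-alpha Slc25a24 was not called by the probe used, but with every kept probe tested a second probe of similar brightness was (0.89 ± 0.25, adjusted p = 0.0223, after 0.86 ± 0.25 untreated, adjusted p = 0.0304). Slc25a23 was not called with IFN-alpha on all arrays (adjusted p = 0.354) and was called without array 12 (adjusted p = 0.00529). Called with IFN-alpha and not without were Slc25a12, an aspartate-glutamate carrier (-1.01 ± 0.19), Slc25a44, a carrier of branched-chain amino acids (-0.78 ± 0.24), Slc25a18, a glutamate carrier (at least 1.13-fold higher), and Slc25a45 (1.42 ± 0.42). Without array 12 the calls of Slc25a45 (1.04, adjusted p = 0.122) and Slc25a44 (-0.78, adjusted p = 0.0834) were lost. Slc25a12 measured 9.52, 9.35 and 9.32 against 9.39, 9.14 and 9.30 untreated, and 9.82, 9.48 and 9.35 against 8.71, 8.46 and 8.44 with IFN-alpha. The phosphate carrier Slc25a3 (0.35 ± 0.20 and 0.40 ± 0.20), the adenine nucleotide carriers Slc25a4 (0.50 ± 0.53 and 1.18 ± 0.53) and Slc25a5 (0.45 ± 0.24 and 0.74 ± 0.24) and the citrate carrier Slc25a1 (-0.25 ± 0.36 and -0.54 ± 0.36) were not called.

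Among 8 tested genes for nucleosides and nucleotide sugars, 2 were higher and 2 lower in both comparisons. Slc29a1, the equilibrative nucleoside transporter ENT1, measured 10.21, 10.78 and 10.90 against 11.49, 11.47 and 11.46 and was 1.79-fold and 2.19-fold higher, by 2 probes (limma adjusted p = 0.0193 and 0.00251). Slc35a1, which brings CMP-sialic acid into the Golgi, was 1.64-fold and 1.72-fold higher (limma adjusted p = 0.0442 and 0.0252), and without array 12 the call with IFN-alpha was lost (0.70, adjusted p = 0.0712). Slc35a2, the X-linked UDP-galactose transporter of the Golgi, measured 10.57, 10.66 and 10.76 against 10.12, 9.45 and 9.26 and was 2.07-fold and 2.38-fold lower (adjusted p = 0.0119 and 0.00343). Slc17a9, the vesicular nucleotide transporter, was below background on all 6 Rictor-/- arrays and at least 1.58-fold and at least 1.29-fold lower (adjusted p = 0.00465 and 0.00222). Of the 6 tested genes on the X chromosome 3 were called in untreated cells, Slc7a3 and Slc35a2 lower and Slc6a8 higher. Among named genes 22.2% were called in that comparison.

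In the class of organic cations, anions and transmitters 8 of 17 genes were tested, with 2 higher and 0 lower untreated and 2 of each with IFN-alpha. Slc14a1, the urea transporter of red cells and kidney, measured 4.90, 4.87 and 4.73 in untreated and 4.79, 5.02 and 4.68 in IFN-treated Rictor+/+ cells, and 10.10, 9.84 and 9.89 untreated and 9.67, 9.84 and 9.46 with IFN-alpha in Rictor-/- cells. It was below background on all 6 Rictor+/+ arrays, and was at least 13.4-fold and at least 11.7-fold higher in Rictor-/- cells (limma adjusted p = 3.25e-09 and 5.62e-09). All 3 probes of Slc14a1 were above background in Rictor-/- cells alone, at least 5.62-fold to 13.4-fold higher untreated. Slc6a8, the X-linked creatine transporter, measured 10.35, 10.90 and 10.90 against 11.74, 11.78 and 11.90 and was 2.12-fold and 2.17-fold higher (adjusted p = 0.00912 and 0.00662). With IFN-alpha 2 further genes were lower: Slc44a1, a choline transporter (-1.08 ± 0.23), and Slc22a17, a receptor for a lipocalin, at least 1.04-fold lower. In untreated cells the probes of Slc44a1 disagreed. With every kept probe tested, its dim probe was called higher there (1.10 ± 0.31, limma adjusted p = 0.0292). The bright probe differed by -0.68 ± 0.23 and was not called.

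**Figure D3:**
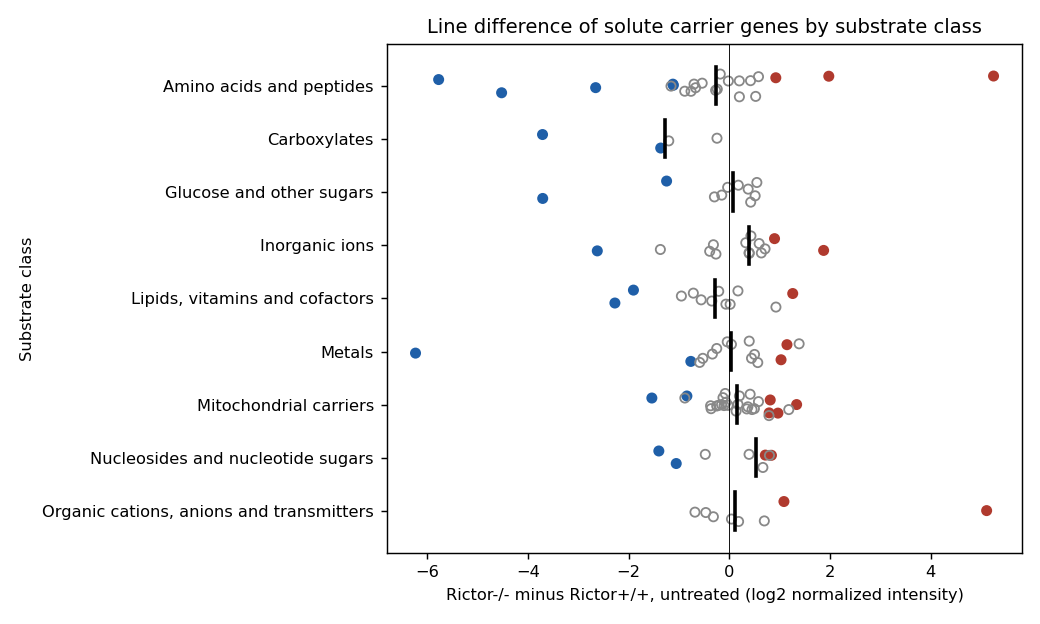
Difference between the untreated lines, Rictor-/- minus Rictor+/+ in log2 normalized intensity, for the tested solute carrier genes in 9 substrate classes; each point is a gene, filled points were called higher (red) or lower (blue), and bars are class medians. The class medians lie between -1.28 (carboxylates) and 0.53 (nucleosides and nucleotide sugars), and 6 of the 9 classes hold calls in both directions.

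Other membrane transporters gave a comparison within the same arrays. Of 17 tested ABC transporter genes 0 were higher and 3 lower in untreated Rictor-/- cells, and 1 was higher and 5 lower with IFN-alpha. For these and the lists below, 10.6% of named genes were higher and 11.6% lower untreated, and 11.4% and 15.1% with IFN-alpha. The ABC transporter genes called lower in both were Abca9, Abca8b and Abcc3, all below background in the Rictor-/- groups. They were at least 8.71-fold, 1.33-fold and 1.24-fold lower untreated. With IFN-alpha Abca9 was at least 9.16-fold and Abca8b at least 1.08-fold lower. For Abcc3 no bound could be given there, since its Rictor+/+ mean did not exceed the background limit. Of 30 listed genes for amino acid sensing at the lysosome 20 were measured, with 1 higher and 1 lower untreated: Rragb, a GTPase of the sensor, was at least 3.73-fold higher, and Sec13 lower (-0.66 ± 0.17). Of 29 listed glycolysis and hypoxia genes 19 were measured, with 1 higher and 3 lower untreated. Of 20 listed NRF2 targets 12 were measured, with 2 higher and 2 lower untreated. Among the adipocyte markers the measured gene, Pparg, was below background on all Rictor-/- arrays, at least 11.6-fold lower untreated. Of the fibroblast markers 1 was higher and 5 lower untreated. Whether these differences bear on the transporters was not tested.

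The second question was whether IFN-alpha changes solute carrier genes. In Rictor+/+ cells 0 of 122 were called by limma, against 2.45% of all features and 4.05% of named genes. There 9 had an unadjusted limma p under 0.05 (5 up and 4 down), which is 7.38% against 9.24% of all features. In Rictor-/- cells 0 of 122 were called, against 0.834% of all features and 1.33% of named genes. There 7 had an unadjusted limma p under 0.05 (3 up and 4 down), which is 5.74% against 6.49% of all features. The treatment itself is seen in the check genes, of which all 8 measured rose in both lines, with medians of 5.35 and 6.19 on the log2 scale. The solute carriers ranged from -1.03 to 1.17 in Rictor+/+ cells, with a median of -0.01. The 95% interval lay within 2-fold in either direction for 75 of 122 genes in Rictor+/+ and 68 in Rictor-/- cells, and reached beyond it for the others.

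**Figure D4:**
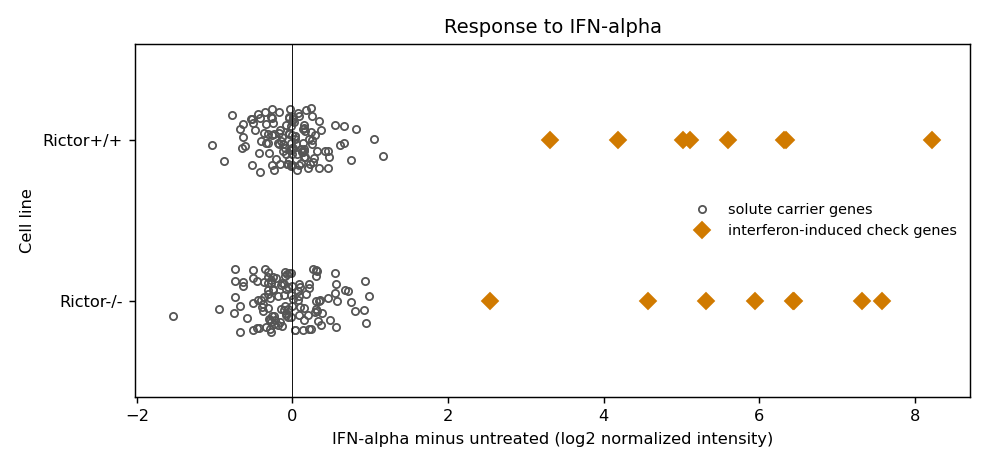
Change with IFN-alpha, treated minus untreated in log2 normalized intensity, in each line; open circles are the 122 solute carrier genes and filled diamonds the 8 measured interferon-induced check genes. The solute carriers lie between -1.53 and 1.17, and the check genes all lie to the right of them.

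The smallest adjusted p values belonged to Slc46a3 and Slc2a10. Slc46a3, of the lysosomal membrane, measured 7.11, 7.20 and 6.79 untreated and 8.54, 7.81 and 8.25 with IFN-alpha in Rictor+/+ cells, 1.17 ± 0.36 higher without overlap but not called (limma adjusted p = 0.17). In Rictor-/- cells it measured 8.55, 7.95 and 7.38 untreated and 7.32, 7.80 and 6.51 with IFN-alpha. Slc2a10 in Rictor-/- cells measured 8.02, 6.51 and 6.97 untreated and 5.77, 6.02 and 5.13 with IFN-alpha (-1.53 ± 0.37, adjusted p = 0.118), and was called only without array 7 (-1.86, adjusted p = 0.0471). Slc8a1 in Rictor+/+ cells was 0.75 ± 0.23 higher without overlap (adjusted p = 0.18). The same gene was called with no background correction (0.70, adjusted p = 0.046) and in the deposited normalized values (0.74, adjusted p = 0.0348). In Rictor-/- cells its change was -0.26 ± 0.23, with overlapping groups. The calls above rest on 1 probe per gene. With every kept probe tested, dim second probes of 2 genes were called higher with IFN-alpha in Rictor+/+ cells, that of Slc8a1 (1.31 ± 0.30, adjusted p = 0.0303) and that of Slc44a1 (1.33 ± 0.31, adjusted p = 0.0373). The bright probe of Slc44a1 differed by 0.06 ± 0.23.

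The interferon-stimulated response element binds the factor that type I interferon activates. Its core, a pair of GAAA repeats with any 2 bases between them, was searched on both strands in the same 250 upstream bases. A gene was counted if any of its windows held the core. The core occurred in 4 of 120 solute carrier genes (3.33%), against 3.46% of 27025 genes. The 4 were Slc25a15 and Slc25a22, which were tested, and Slc22a14 and Slc22a26, which were not. Slc25a15 changed by -0.12 in Rictor+/+ and -0.05 in Rictor-/- cells with IFN-alpha, and Slc25a22, a mitochondrial glutamate carrier, by -0.02 and 0.04, none of them called. Their windows are shown because they hold this core without a called response. The matches, in capitals, start 77 bases upstream of the start in Slc25a15 (chr8:22398622-22398871, minus strand) and 79 bases upstream in Slc25a22 (chr7:141435376-141435625, minus strand), and the former is read on the strand opposite to the gene.
Slc25a15: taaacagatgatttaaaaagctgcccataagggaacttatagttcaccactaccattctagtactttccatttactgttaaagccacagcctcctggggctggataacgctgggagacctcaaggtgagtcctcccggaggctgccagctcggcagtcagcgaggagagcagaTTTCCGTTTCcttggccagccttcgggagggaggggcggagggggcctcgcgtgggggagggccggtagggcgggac
Slc25a22: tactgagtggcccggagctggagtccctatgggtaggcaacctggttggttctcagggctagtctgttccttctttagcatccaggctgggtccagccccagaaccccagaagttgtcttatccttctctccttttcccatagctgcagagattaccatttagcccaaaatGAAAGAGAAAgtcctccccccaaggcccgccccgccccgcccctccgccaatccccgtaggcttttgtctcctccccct
These windows come from RefSeq on GRCm38.p6, with 1 window shown per gene. Slc25a15 has 2 windows and Slc25a22 has 3, and the window shown for each was picked because it holds the core. Averaged over the windows of each gene, CG pairs had a median of 13 over the 120 solute carrier genes and 6 over the 27025 genes. The latter were not limited to named genes of the array, so no trait of solute carriers is shown.

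The third question was whether the response to IFN-alpha differs between the lines. The difference of the responses, Rictor-/- minus Rictor+/+, was called by limma for 0 of 122 genes, against 0.382% of all features. An unadjusted limma p under 0.05 was found for 7 (2 up and 5 down), which is 5.74% against 5.48% of all features. The smallest adjusted p was that of Slc46a3 (-1.92 ± 0.50, adjusted p = 0.271). The median SE of such a difference over all features was 0.404, against 0.286 for a comparison of 2 groups, and the 95% interval lay within 2-fold for 35 of 122 genes. The genes called between the lines under 1 treatment alone, 5 without and 10 with IFN-alpha, are therefore not shown to respond differently.

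Several genes were measured by more than 1 probe, which gives a check within an array. In untreated cells 33 genes had 38 further probes above background, and 30 of the 38 had the sign of the probe used. The called genes were taken here with every kept probe tested, which includes Slc39a3 in untreated cells (limma adjusted p = 0.0448). Of their 18 further probes, 16 had the same sign and 8 were called themselves. With IFN-alpha 34 of 38 had the same sign, and for the called genes 14 of 15, of which 7 were called. Slc8a1, Slc14a1, Slc29a1, Slc38a1 and Slc39a13 kept their direction on all their probes in both comparisons. Slc6a6, Slc25a37 and Slc44a1 did not in at least 1 comparison. For IFN-alpha against untreated cells, 26 of 38 further probes in Rictor+/+ and 23 of 38 in Rictor-/- cells had the sign of the probe used, and 2 and 0 of them were called.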

How the data were processed

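Total RNA of 4 groups of 3 arrays was measured. The deposited non-normalized table holds intensity, the bead signal of 45281 probes per array; the authors used BeadStudio, per the submitters' processing notes, and no version is given there. The other deposited table gives 17003 probes as log2 values, which the authors normalized by a method not given in the sources used here, and its values followed the rank of each array's intensities (Spearman 0.998 to 1.00 across probes). Gene names came from the platform annotation and were given only for probes of this table, whose selection is not stated and may favour genes that vary.

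Intensities were corrected with normexp (limma 3.58.1 in R 4.3.3), using the mode of each array's signals as background and an offset of 16, then quantile normalized and taken to log2. Background calls used an upper-tail probability under 0.01 on each array. The 20865 probes above background on at least 3 of 12 arrays were kept, and the brightest stood for its gene, which left 17268 features, 8277 of them named genes. A single limma fit took all arrays and the 4 group means (8 residual degrees of freedom, 4.51 added by moderation), with 5 two-sided contrasts and Benjamini-Hochberg adjustment over all features. For groups with no array above background, a fold is a bound against the background limit. The number of arrays limits the precision.

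The members and lists were chosen with earlier results of these data known. The text names called genes up to 12 per direction and comparison, the genes at the threshold, genes whose probes disagree, and a list of 29 transporters, of which 21 were in the table and tested and 8 were not analysed here. Genes named for a motif, for a range or from the other lists were named after their values were seen. All 155 symbols matched RefSeq by gene ID. The 9 other settings were no background correction, an offset of 50, median scaling, cyclic loess, the deposited values, no filter, background range as a block, array weights, and a fit of the compared groups alone. A filter at 6 arrays, every kept probe tested, and a fit within each background range were also run, and, added after seeing the data, runs of 4 consecutive arrays as a block. The scripts were tested on simulated data for the comparison of the untreated lines. Of 100 features with a true log2 difference of 1, 29 were called, and 95 of 100 with one of 2, with 8 false calls. Most 2-fold differences were thus missed in the simulation.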

Additional observations from a re-analysis of the deposited data

How the results depend on the processing

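The counts of called solute carrier genes depended on the setting more than their directions did. Of 3164 recomputed single-gene results none changed sign while called. The sizes of differences depended on the setting as well. In the deposited values the untreated differences were -3.78 for Slc1a3, 2.92 for Slc14a1, 3.10 for Slc6a15, -1.86 for Slc2a3 and -1.90 for Slc16a4. In the main fit they were -5.77, 5.11, 5.25, -3.70 and -3.71. For Slc25a17 the deposited difference was -0.87, against -0.84. Folds and bounds in fold therefore hold only for the processing used. In untreated cells the 16 higher calls became 5 with median scaling, 10 with no filter on dim probes, 4 on the arrays of high background, 2 on those of low background and 33 with array weights, and ranged from 7 to 18 without 1 array (7 without array 7 or 11 and 9 without array 3 or 5). The 18 lower calls became 10 and 7 on the arrays of high and low background, 31 with array weights, and 13 to 18 without 1 array. With IFN-alpha the 15 higher calls became 3 with median scaling, 5 and 2 on the arrays of high and low background, 31 with array weights, and 8 to 18 without 1 array (8 without array 2, 9 without array 4 or 6). The 24 lower calls became 13 and 8 on the arrays of high and low background and 20 to 25 without 1 array. Fits within a background range hold 1 or 2 arrays per group, so fewer arrays enter them. The cause of the other shifts was not tested. For IFN-alpha in Rictor+/+ cells the count of 0 became 1 with no background correction, 1 in the deposited values (Slc8a1 in both), 1 with no filter (Slc10a6) and 3 with array weights (Slc25a10, Slc23a2 and Slc31a2). In Rictor-/- cells it was 0 to 1 without 1 array, the 1 being Slc2a10 without array 7. The difference of responses stayed at 0 in all settings run, with 7 genes at an unadjusted limma p under 0.05 on all arrays. The other counts were within 1.5 times the main count. Dim second probes of Slc8a1 and Slc44a1 were also called for IFN-alpha in Rictor+/+ cells with every kept probe tested. No paired analysis was possible because the labels share no number between groups and name no sets of arrays. Runs of 4 consecutive arrays each hold 1 array of every group, and with these runs as a block, an alternative chosen after seeing the data, the calls were 16 higher and 17 lower untreated, 18 and 24 with IFN-alpha, and 0 in the other comparisons. With 3 arrays per group, changes in probes near background remain the least certain.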
